A study of Mus musculus with 13 samples.

Results

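Around 8 genes of neural basic helix-loop-helix (bHLH) transcription factors, Neurog2, Neurod1, Neurod2, Neurod4, Neurod6, Olig1, Olig2 and Bhlhe22, open chromatin was compared between mouse forebrain (FB), distal forelimb (DFL) and proximal forelimb (PFL) at E12.5. The measurements are ATAC-seq, in which the transposase Tn5 cuts and tags accessible DNA, and the deposited values are the peaks called in each library. A region was taken as belonging to a gene when its strongest summit lay within 100 kb of the gene body (GENCODE M21 annotation, mouse build GRCm38/mm10), and each region was counted once, for the nearest of the 8 genes. After the peaks of all 13 libraries were joined, 200 of 276965 consensus regions in the genome lay around these genes. Of these, 145 were called in at least 2 of the 12 libraries compared and were tested, 45 were called in 1 of those libraries and 10 only in the additional library described below.

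The 12 libraries formed 6 groups of 2 replicates, each from 50000 cells of a pool of embryos, with different litters for the replicates. Wild-type (wt) and allele 542 embryos, both on the B6CBAF1 background, were each sampled in DFL, PFL and FB. Embryos of 542, the offspring of 1 founder line, were homozygous for a single copy of II1:HBB:LacZ inserted into T-DOM, the regulatory domain on the telomeric side of the HoxD cluster. This transgene joins the distal limb enhancer II1 to a human beta-globin promoter and a LacZ reporter. The wt reads were mapped to mm10 and the 542 reads to a genome that holds the insertion, so the genotype and the genome used for mapping cannot be told apart. A further wt DFL library, described in the labels as an earlier sample analysed anew (Bolt2021), entered no group and no test, and limb libraries below are the 8 of the groups.

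Factors of the bHLH family bind the E-box, a short palindromic DNA motif, usually as dimers with an E protein such as Tcf3 or Tcf12. In the developing brain, the proneural factor Neurog2 commits dorsal progenitors to the neuronal fate, and factors of the Neurod family act downstream of it as neurons differentiate. Hes and Hey repressors, induced by Notch signalling, and the Id proteins, which sequester E proteins, hold this program back. Olig1 and Olig2 act mainly in ventral progenitors and in the oligodendrocyte lineage, and Bhlhe22 acts in postmitotic neurons. Limb mesenchyme is not known to use this program, although the axons and glia of peripheral nerves enter the limb at this stage.

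The following sequences show chromatin called open in every FB library and in no limb library of the 6 groups. For each gene but Neurod1, the region with the highest mean fold in FB was taken among those called in 4 of 4 FB and 0 of 8 limb libraries and more than 1 kb from any annotated start. The fold is the number of tags (cut sites) under a summit plus 1, divided by the local background plus 1, in the same library. Each sequence reaches 100 bases to either side of the summit in the wt FB library with the higher fold, and is given 5′ to 3′ on the plus strand of GRCm38. Capitals mark a match to the E-box forms CAGATG (which reads CATCTG on the other strand), CAGCTG or CATATG, of which the first is known as a site of Neurog2 and Neurod factors.
Neurog2_19, chr3:127720079-127720279: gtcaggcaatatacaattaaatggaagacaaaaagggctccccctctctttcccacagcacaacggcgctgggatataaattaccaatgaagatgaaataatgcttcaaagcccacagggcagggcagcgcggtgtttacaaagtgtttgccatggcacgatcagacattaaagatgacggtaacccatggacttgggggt
Neurod4_14, chr10:130293818-130294018: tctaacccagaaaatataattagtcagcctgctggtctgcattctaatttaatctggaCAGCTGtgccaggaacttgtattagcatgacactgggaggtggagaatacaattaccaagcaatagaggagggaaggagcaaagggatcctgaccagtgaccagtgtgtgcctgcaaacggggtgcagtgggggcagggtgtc
Neurod2_7, chr11:98296392-98296592: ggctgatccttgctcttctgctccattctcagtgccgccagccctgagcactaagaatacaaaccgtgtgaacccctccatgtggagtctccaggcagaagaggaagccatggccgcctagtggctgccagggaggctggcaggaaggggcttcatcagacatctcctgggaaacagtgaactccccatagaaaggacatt
Neurod6_21, chr6:55704204-55704404: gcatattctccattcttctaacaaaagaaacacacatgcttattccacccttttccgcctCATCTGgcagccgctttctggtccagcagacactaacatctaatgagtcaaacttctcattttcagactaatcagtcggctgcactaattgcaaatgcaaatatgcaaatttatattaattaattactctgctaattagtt
Bhlhe22_19, chr3:18144681-18144881: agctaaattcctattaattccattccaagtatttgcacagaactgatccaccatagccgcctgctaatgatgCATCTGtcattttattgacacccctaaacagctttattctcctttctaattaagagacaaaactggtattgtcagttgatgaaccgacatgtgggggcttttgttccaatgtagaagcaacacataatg
Olig2_12, chr16:91192757-91192957: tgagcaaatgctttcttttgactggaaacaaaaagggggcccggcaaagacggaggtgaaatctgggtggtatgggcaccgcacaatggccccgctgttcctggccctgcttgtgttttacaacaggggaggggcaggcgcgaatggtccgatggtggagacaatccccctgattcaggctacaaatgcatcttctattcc
Olig1_7, chr16:91292848-91293048: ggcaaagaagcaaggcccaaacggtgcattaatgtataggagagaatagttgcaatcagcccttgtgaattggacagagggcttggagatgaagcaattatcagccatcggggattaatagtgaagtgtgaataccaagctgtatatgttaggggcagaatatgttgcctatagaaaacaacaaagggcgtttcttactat

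The mean folds of these regions in FB were 5.01 ± 0.932 (SD, n = 4) for Neurog2_19, 8.82 ± 1.36 for Neurod4_14 and 5.06 ± 0.875 for Neurod2_7. They were 4.99 ± 0.175 for Neurod6_21, 10.1 ± 0.5 for Bhlhe22_19, 7.12 ± 0.541 for Olig2_12 and 7.64 ± 1.17 for Olig1_7. The number after the gene name counts its consensus regions along the chromosome. Neurog2_19 lies in an intron of Alpk1, Bhlhe22_19 in an intron of Cyp7b1 and Olig1_7 in an intron of the noncoding gene Gm15966, while the other 4 are intergenic. Of the 7, Neurod2_7 and Olig2_12 were called in the additional wt DFL library, at folds of 3.75 and 4.18. A match to an E-box form was present in 3 of these 7 sequences, those of Neurod4_14, Neurod6_21 and Bhlhe22_19.

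Over all 145 regions tested, read in the same way on both strands, CAGATG was found in 24.8% of the regions around the 8 genes against 21.4% of the 183039 regions tested in the genome. CAGCTG was found in 15.9% against 20.2% and CATATG in 4.83% against 5.19%. Among the 45 regions around the 8 genes that were called in every FB library and in no limb library, the shares were 24.4%, 4.44% and 8.89%, against 22.2%, 19.8% and 5.73% of all regions with that pattern. The 3 motifs differ from each other in their 2 central bases, so no match was counted under more than 1 of them. RefSeq promoter sequences of GRCm38 were matched for 6 of the 8 genes (Neurod4 with 2 starts). CATATG was present in those of Neurod1 and Neurod2, CAGATG in that of Neurod2 and CAGCTG in 1 of those of Neurod4. Of all 32851 promoters of the same length, 17.2% held CAGATG, 16.3% CAGCTG and 3.91% CATATG.

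The forebrain had about 2 times as many open regions around these genes as the limb. Each library's own regions, before joining, numbered 119 to 133 in FB (median 124.5), against 56 to 73 in the 8 limb libraries (median 59.0). The tissues thus did not overlap. The share of a library's peaks differed in the same way. Of every 1000 regions called in a library, 1.21 to 1.32 lay around the 8 genes in FB and 0.541 to 0.67 in limb. Within the limb, DFL libraries held 57 to 72 and PFL libraries 56 to 73, which overlap.

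As a ratio of medians the contrast was widest around Bhlhe22, Olig2, Olig1 and Neurod4. Around Bhlhe22, a transcriptional repressor in postmitotic neurons, 13, 12, 14 and 11 regions were called in the 4 FB libraries and 1 to 6 (median 3.0) in limb. Around Olig2 there were 20, 17, 17 and 19 in FB and 2 to 7 (median 5.0) in limb. Around Olig1 the FB libraries had 15, 15, 15 and 18 regions and the limb libraries 4 to 7 (median 5.5), and around Neurod4 there were 16, 16, 15 and 14 in FB and 4 to 7 (median 6.0) in limb. None of these 4 ranges overlapped.

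Around Neurod1 and Neurod6 the tissues were closer. The Neurod1 window held 18, 16, 15 and 16 regions in FB and 11 to 17 in limb, and the Neurod6 window 13, 11, 12 and 9 in FB and 6 to 11 in limb, so that the ranges overlapped for both genes. Around Neurog2, the first factor of the cascade, the counts were 17, 15, 18 and 18 in FB and 9 to 16 in limb, which also overlap. For Neurod2, a factor of postmitotic cortical neurons, 21, 17, 19 and 19 regions in FB stood clear of 6 to 13 in limb (medians of 19.0 and 8.0).

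**Figure D1:**
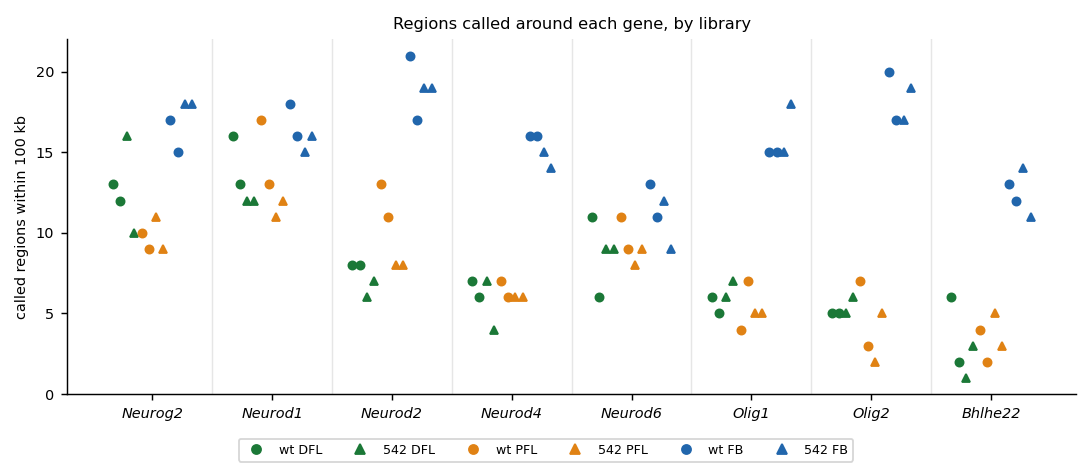
Number of called regions within 100 kb of each gene (y axis, from 0), 1 point per library, with the 6 groups of genotype and tissue in separate colours and marks. The FB points lie above all limb points for Neurod2, Neurod4, Olig1, Olig2 and Bhlhe22 and reach into the limb range for Neurog2, Neurod1 and Neurod6.

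Depth and library content bear on these values as follows. The 12 libraries held an estimated 37.5 to 70.7 M tags (M for mega; 51.4 to 70.7 M in FB and 37.5 to 54.5 M in limb) and 85070 to 118297 called regions. At the usual background of a library, the fewest tags called were 12 to 17, a fold of 2.1 to 2.6, so a region below this was not detectable and is not shown to be closed. FB libraries were the deeper ones on average, and the part of depth in the counts of regions was not tested. Under the summits around the 8 genes there were 12 to 1078 tags (median 43). Starts of 25 marker genes were checked against the labelled tissue. Six3, a forebrain gene, was called in 4 of 4 FB and no limb library, the neuronal gene Elavl3 in 4 FB libraries and 2 DFL libraries, and Tbx5, a forelimb gene, in 3 DFL and 2 PFL libraries and no FB library. Twist1, a mesenchymal gene, had a fold of 4.57 to 5.14 in FB and 8.80 to 11.6 in limb, and Hoxd13 was highest in DFL (8.67 to 9.78). The starts of Meis1 in the proximal list, Myod1 in the muscle list, Sox10 for Schwann cell precursors and Gata1 for blood had no called region in any library. Of the other markers of muscle, vessels and epidermis, Pax3 (2.35 to 4.48) and Kdr were called in all 12 libraries, Kdr at 6.64 to 10 in FB, 12.2 to 13.6 in DFL and 8.93 to 13.3 in PFL. Trp63 was called in 3 DFL and 3 PFL libraries and no FB library, Myf5 in 1 DFL and 3 PFL libraries, Cdh5 in 1 FB and 1 PFL library and Krt5 in 1 PFL library. Not all starts kept to their tissue, since Prrx1, Hand2, Shox2, Emx1, Emx2 and Tbr1 were called in all 12 libraries. Prrx1, a limb gene, had 6.36 to 7.98 in FB, 4.89 to 5.58 in DFL and 3.72 to 6.52 in PFL. Tbr1, a forebrain gene, had 2.81 to 4.24 in FB, 3.88 to 5.54 in DFL and 2.77 to 4.7 in PFL. Hand2 was lower in FB (3.74 to 4.69) than in limb (5.15 to 7.7), and Emx1 higher (6.73 to 8.18 against 2.69 to 4.92). FB and PFL ranges overlapped for Emx2 and Shox2. The part of these cell types in the results was not tested. In such bulk samples fewer cells of a type cannot be told apart from less signal per cell.

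Of the 145 regions tested, 89 were higher in FB than in limb and 19 were lower, while 37 did not pass the test (limma on the log2 fold, Benjamini-Hochberg adjusted p under 0.05 over all regions). Over the genome 31.3% of regions were higher and 32.9% lower in FB. The median log2 difference, FB minus limb, was 0.67 around the 8 genes and −0.11 over all regions tested. A library in which a region was not called was given its lowest called fold, so that differences that rest on uncalled libraries depend on that floor. There were 45 regions called in 4 of 4 FB and 0 of 8 limb libraries, a pattern shown by 9.23% of all regions. The opposite pattern was shown by 2 regions, against 5.48%. With either pattern 1 side of the test holds floors only, so the test restates the pattern of calls. In all 12 libraries 23 of the 145 regions were called, against a genome share of 15.5%, and the SD of their log2 fold between 2 replicates had a median of 0.14.

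By gene, higher regions outnumbered lower ones at 7 of the 8 genes. For Neurog2, 13 of 17 tested regions were higher and 2 lower, and for Neurod4 13 of 15 were higher and 1 lower. Bhlhe22 had 10 of 15 higher and 1 lower, Neurod2 11 of 22, Olig1 13 of 17 and Olig2 12 of 19, with none lower for the last 3. Neurod1 had 11 of 25 higher and 9 lower, and Neurod6 6 of 15 higher and 6 lower, with median log2 differences of 0.35 and 0.0. By position, 33 of 44 intronic regions were higher and 2 lower, 46 of 75 intergenic regions were higher and 10 lower, and of 17 regions within 500 bp of an annotated start 8 were higher and 4 lower. Many of these starts and introns belong to other genes in the window, and a region's place near a gene does not show which gene it acts on.

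**Figure D2:**
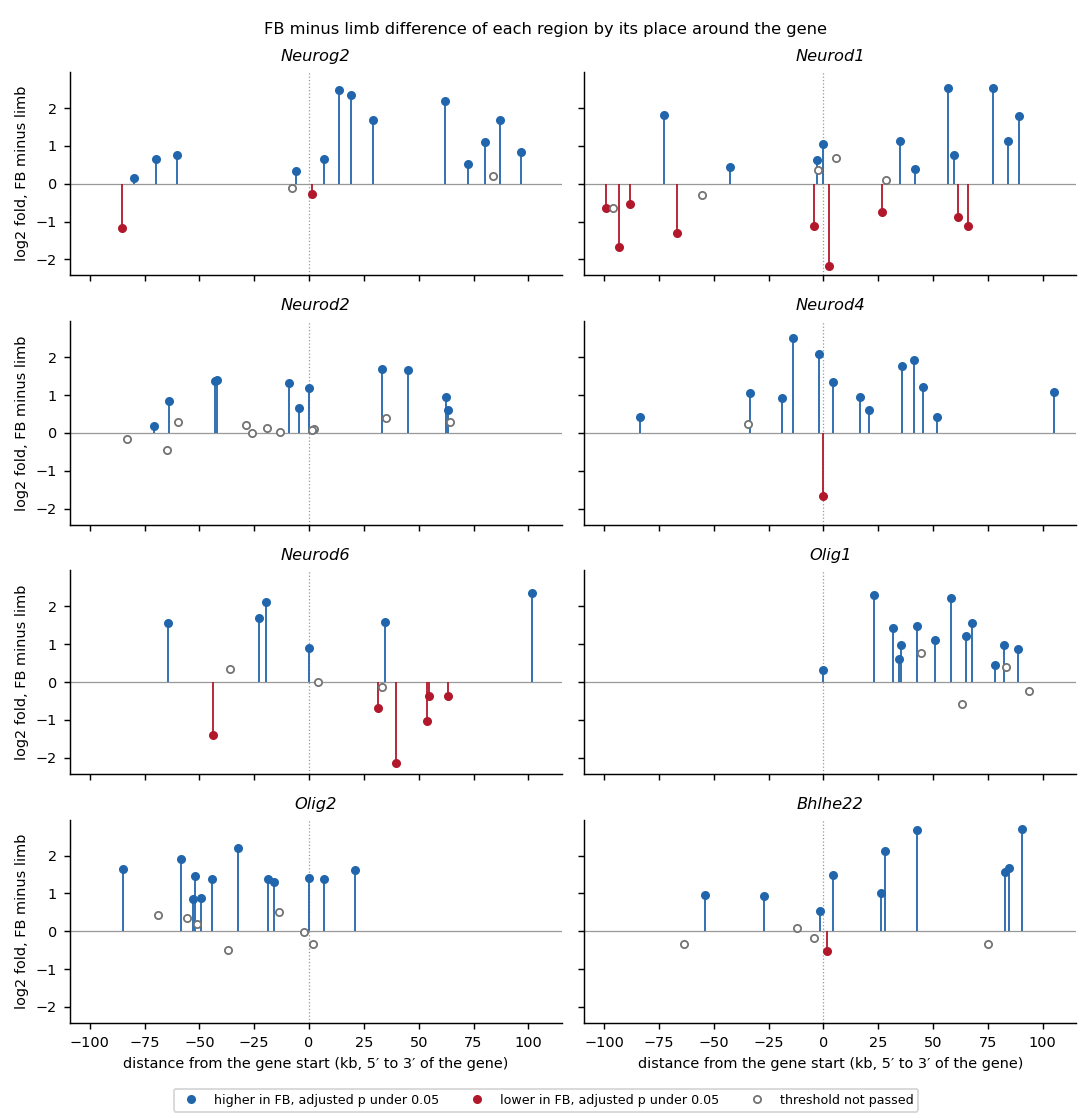
Log2 fold of FB minus limb (y axis) for each tested region against its distance from the start of the gene in kb (x axis, 5′ to 3′ of the gene), with 1 panel per gene, filled points for regions that passed the test and open points for the others. Points above 0 prevail except around Neurod1 and Neurod6, where points of both signs occur.

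The starts of the genes themselves did not all follow the regions around them. The strongest summit within 500 bp of each annotated start was compared on 2 scales, the fold and the tags per M tags of the library, because the fold also depends on the local background. On both scales the start was higher in FB for Neurog2, Neurod1, Neurod2, Neurod6, Olig2 and Bhlhe22 and lower in FB for Neurod4, with exact two-sided permutation tests of 4 against 8 libraries, of which the smallest possible p is 0.00404. For Olig1 the test passed on the fold scale only. These tests take all libraries as exchangeable and leave out the genotype and the split of limb into DFL and PFL.

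The Neurog2 start (chr3:127633135, plus strand) had folds of 7.18, 8.51, 8.04 and 8.02 in FB and 2.53 to 4.27 (median 3.25) in limb. On the other scale there were 5.36, 5.62, 6.19 and 6.28 tags per M in FB against 0.58 to 1.12 (median 0.777) in limb. The groups did not overlap on either scale, and the difference was larger in tags per M. The log2 difference, FB minus limb, was 1.23 in fold and 2.87 in tags per M (exact permutation p = 0.00404 for both). The local background around this summit was 36.5 to 52 tags in FB and 7.62 to 13.5 in limb.

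The Neurod1 start had folds of 7.75, 8.47, 8.76 and 7.95 in FB and 4.05 to 5.14 (median 4.42) in the 7 limb libraries in which it was called. The tags per M were 4.23, 4.65, 4.84 and 4.18 in FB and 0.739 to 1.09 in limb. The tissues did not overlap, and the log2 differences were 1.07 in fold and 2.59 in tags per M (exact permutation p = 0.00404 for both). In the test across all regions this start, Neurod1_18, had a log2 difference of 1.05 ± 0.25 (SE, limma adjusted p = 0.00562). It is shared, since a start of Cerkl also lies within 500 bp of the summit.

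Neurod4 was the exception. Its start, Neurod4_12, had folds of 3.91, 5.66, 4.67 and 5.42 in FB and 12.7 to 18.2 (median 15.8) in limb. The tags per M were 0.75, 1.2, 1.02 and 1.21 in FB and 1.57 to 3.43 (median 2.04) in limb. Every limb library was above every FB library on both scales, with log2 differences of −1.67 in fold and −1.08 in tags per M (exact permutation p = 0.00404 for both). In limma the fold difference was −1.67 ± 0.11 (SE, adjusted p = 2.65e-06). Around the same gene, a neuronal differentiation factor, 13 of the other regions were higher in FB.

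The start of Neurod2 had folds of 4.27, 4.31, 2.45 and 3.41 in FB and was called in no limb library. The log2 difference was 1.21 in fold and 1.05 in tags per M with the uncalled libraries at their floor (exact permutation p = 0.00404). For Neurod6, the other factor of postmitotic cortical neurons, the start was called in 3 FB libraries at folds of 4.35, 3.79 and 2.61, not in the second 542 FB library and in no limb library. Its p was 0.0283 in fold and 0.0242 in tags per M by the same exact permutation test. At both starts the limb values are all floors, so the tests rest on which libraries were called. Both starts were weak in FB, with 27 to 52 tags under the Neurod2 summit and 29 to 63 under that of Neurod6.

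The Bhlhe22 start had folds of 3.56, 3.16, 4.62 and 4.12 in FB and was called in 3 of 8 limb libraries at 1.91 to 2.22. The tags per M were 2.33, 2.19, 2.98 and 2.55 in FB and 0.661 to 0.759 in those 3 limb libraries. The groups did not overlap, and the log2 difference was 1.16 in fold and 2.59 in tags per M (exact permutation p = 0.00404 for both).

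The Olig2 start had folds of 9.98, 6.98, 9.15 and 9.67 in FB, 4.4, 5.81, 4.74 and 4.19 in DFL, and 2.65 and 4.48 in the 2 wt PFL libraries, and it was not called in the 542 PFL libraries. FB lay above limb, with log2 differences of 1.42 in fold and 2.39 in tags per M (exact permutation p = 0.00404 for both). In the limma fit this region, Olig2_18, also differed between the limb tissues, with a log2 difference of 1.02 ± 0.2 for DFL minus PFL (SE, adjusted p = 0.00649). The Olig1 start, in contrast, was open in all 12 libraries, with folds of 12.3, 12, 12.8 and 11.5 in FB and 7.39 to 12.9 (median 9.72) in limb. These ranges overlapped. The log2 difference was 0.33 in fold (exact permutation p = 0.0242) and 0.37 in tags per M (p = 0.0727 by the same exact permutation test), and the limma value for the region, 0.33 with an adjusted p of 0.0143, rose to an adjusted p of 0.0616 without the first 542 FB library. That call was also lost when folds were centred on the regions called in all libraries (0.15, limma adjusted p = 0.155) and when folds were taken as percentiles (adjusted p = 0.234). Of the 8 starts that of Olig1 had the smallest difference on both scales, while 13 of 17 regions around it were higher in FB.

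**Figure D3:**
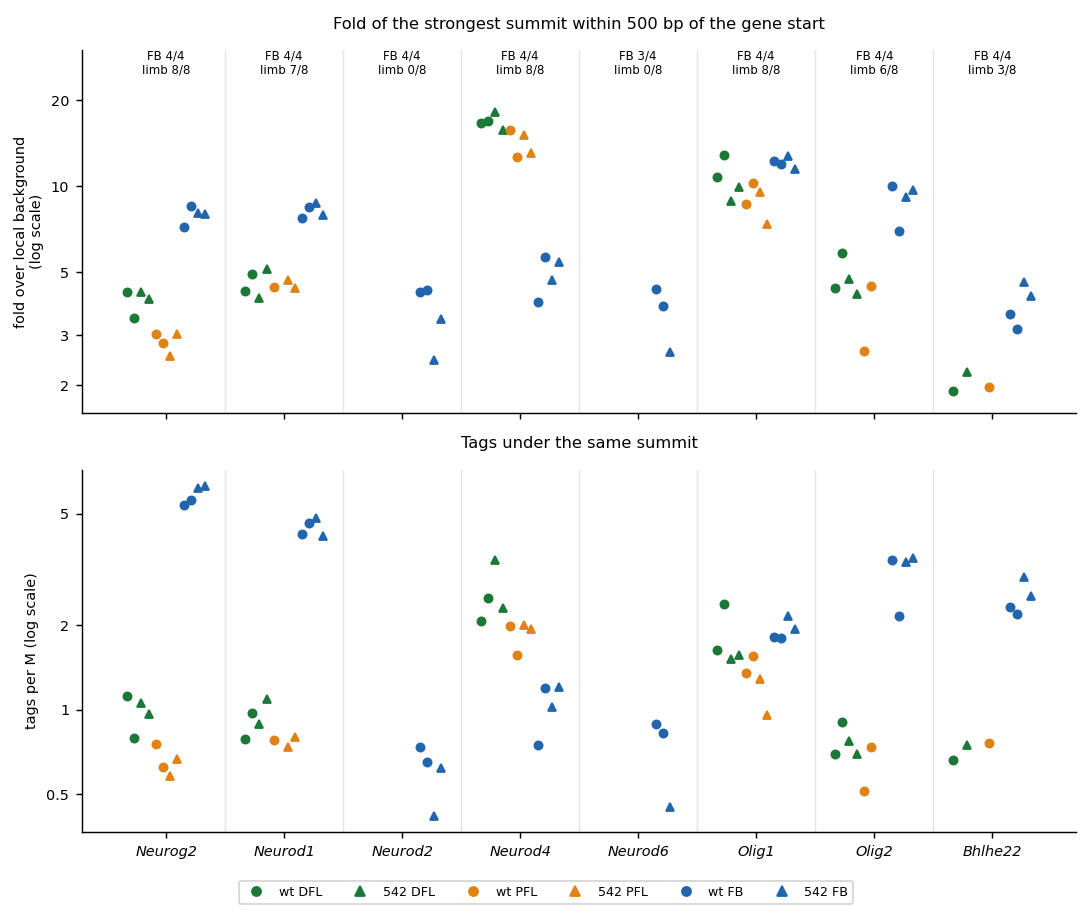
Strongest summit within 500 bp of each gene start, 1 point per library, as fold over local background and as tags per M (log axes), with FB, DFL and PFL in both genotypes. Uncalled libraries have no point, and the number of libraries called is written above each gene. FB points lie above the limb points of Neurog2, Neurod1, Olig2 and Bhlhe22, below those of Neurod4 and among those of Olig1, and Neurod2 and Neurod6 have FB points only.

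Inside the gene bodies of Neurog2 and Bhlhe22 the regions over the starts hold a further summit in a coding exon, 1133 bp and 1530 bp past the start. The exon summit was the strongest of the region in all 8 limb libraries. In FB the start summit was the strongest in 3 of 4 libraries for Neurog2_7 and in the first 542 library for Bhlhe22_7, so the values of these 2 regions compare different sites. The exon summits themselves, the strongest within 500 bp, were therefore compared too, a choice made after the values were seen.

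At the exon summit of Neurog2_7 the fold was 7.29, 6.91, 5.82 and 5.83 in FB and 8.42 to 11.3 (median 9.55) in limb. The tags per M were 4.99, 4.22, 4.05 and 4.18 in FB and 1.76 to 2.81 (median 2.14) in limb. The groups did not overlap on either scale, but FB was the lower one in fold (log2 difference −0.58) and the higher one in tags per M (0.98, exact permutation p = 0.00404 for both). The local background was 33.7 to 47.6 tags in FB and 6.96 to 12.6 in limb. At that of Bhlhe22_7 the fold was 3.69, 3.9, 2.86 and 4.32 in FB and 5.14 to 6.4 (median 5.99) in limb, a log2 difference of −0.69 (exact permutation p = 0.00404). The tags per M were 2.26, 2.53, 1.72 and 2.55 in FB and 1.52 to 2.24 (median 1.78) in limb, ranges that overlap (0.29, p = 0.0606 by the same exact permutation test). The local background there was 29.6 to 42.6 tags in FB and 9.64 to 17.8 in limb.

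With the highest value of each library anywhere in the region, the log2 difference of Bhlhe22_7 was −0.51 ± 0.1 in fold (SE, limma adjusted p = 0.0022) and 0.49 in tags per M (adjusted p = 0.00668), and that of Neurog2_7 −0.27 ± 0.1 (adjusted p = 0.034) and 1.40 (adjusted p = 2.35e-06). These were the only 2 of the 145 regions that passed the test with opposite signs on the 2 scales. On both scales 79 regions were higher in FB and 16 lower, 10 were higher in fold only, and 1 was lower in fold only. Of the regions that did not pass on the fold scale, 9 were higher and 7 lower in tags per M. The split over all regions moved with the scale too, from 31.3% higher and 32.9% lower in fold to 27.5% and 41.8% in tags per M, where 90 of the regions around the 8 genes were higher and 23 lower.

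The local background, per M tags of the library, was measured in the 23 regions called in every library. Its FB to limb ratio had a median of 1.23 and lay between 0.605 and 4.16, and it exceeded 2 in 6 of them (26.1%), against a median of 1 and a share of 2.2% over the 28416 such regions in the genome. The 6 were Neurog2_16 (4.16), Neurog2_5 (3.61), Neurog2_7 (3.38), Neurod1_17 (3.08), Neurog2_8 (2.48) and Bhlhe22_7 (2.09). Neurog2_7 and Neurod1_13 (0.605) were the 2 of the 23 regions whose median summits in FB and limb lay more than 500 bp apart, by 1501 and 770 bp, so that their ratios compare different sites. Local backgrounds given in tags for single summits are not scaled to the depth of the library. The background around a summit is itself made of tags in the flanking bases, and its part in these differences was not tested.

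**Figure D4:**
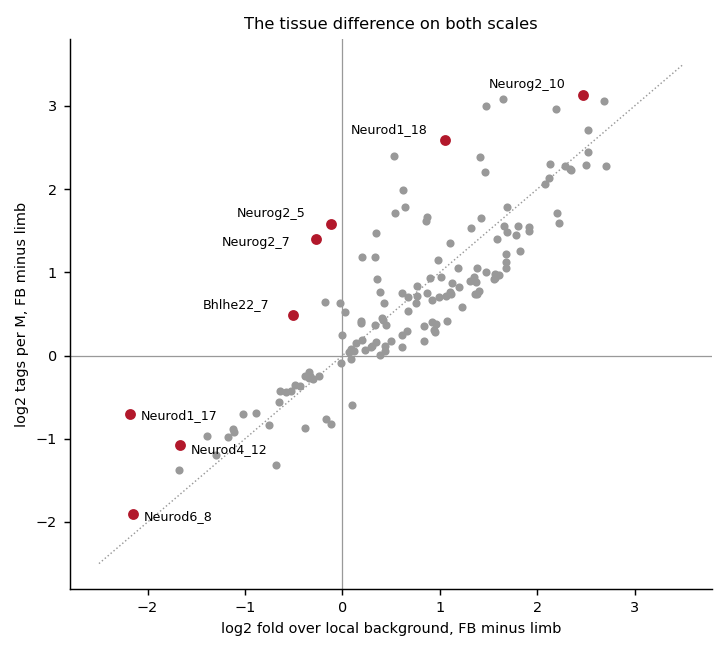
Log2 difference between FB and limb of each tested region in fold over local background (x axis) and in tags per M (y axis), 1 point per region. Most points share their sign on both axes, and Neurog2_7 (−0.27 and 1.40) and Bhlhe22_7 (−0.51 and 0.49), whose strongest summit is not the same in every library, lie in the upper left.

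Away from the starts, the 2 regions of each gene with the largest differences in fold towards FB are described here. They were open in the 4 FB libraries and in at most 3 of the 8 limb libraries, except Neurod2_4. Regions ranked lower for their gene are left out, such as Neurog2_13 (log2 difference 2.19), which was called in 4 limb libraries. Downstream of Neurog2, Neurog2_10 at chr3:127646004-127646974 had folds of 12.2, 10.7, 11.3 and 10.5 in FB and 3.37, 2.63 and 3.32 in 3 DFL libraries, and was called in no PFL library. The log2 difference was 2.47 ± 0.2 (SE, limma adjusted p = 7.24e-06). Neurog2_11 at chr3:127651750-127652748 had folds of 7.79, 8.24, 10.4 and 8.35 in FB and was called in 1 limb library (log2 difference 2.34). Both are intergenic.

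Introns of Cerkl, the gene next to Neurod1, held 2 such regions. Neurod1_6 at chr2:79378740-79380031 had folds of 9.11, 7.94, 9.63 and 12 in FB and 2.64 in 1 DFL library. Neurod1_10 had 7.74, 8.45, 8.96 and 10.5 in FB and none in limb. Both had a log2 difference of 2.52, and FB lay above limb in every library.

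Around Neurod4, 2 regions upstream of the start were open in FB only. Neurod4_13, 1994 bp upstream at chr10:130281841-130282743, had folds of 6.35, 7.03, 7.21 and 5.59 in FB, and Neurod4_14, 13678 bp upstream, had 10.2, 9.01, 6.96 and 9.08. Neither was called in a limb library, and their log2 differences were 2.08 ± 0.12 and 2.50 ± 0.12 (SE, limma adjusted p = 8.18e-07 and 3.95e-07). All limb values in these 2 tests are floors, so the p-values restate the calls. Both regions thus had the opposite direction to the start of the gene.

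For the cortical genes Neurod2 and Neurod6 the largest differences were intergenic. Neurod2_4 at chr11:98283205-98284774 had folds of 6.49, 9.98, 7.24 and 7.63 in FB, 3.06, 3.32, 4.36 and 5.39 in PFL and no call in the 4 DFL libraries of the groups, with a log2 difference of 1.66 between FB and limb and −1.36 between DFL and PFL. The additional wt DFL library had a call there, at 3.96 from 36 tags. Neurod2_7 had 3.86, 5.04, 5.91 and 5.43 in FB and no call in the 8 limb libraries (1.69), and 3.75 in the additional wt DFL library. Neurod6_1 at chr6:55579135-55580513 had 7.7, 10, 8.41 and 8.19 in FB and 3.13 in 1 DFL library (2.35), and Neurod6_20 at chr6:55700318-55701332 had 6.12, 7.87, 7.33 and 9.24 in FB and 3.85 in 1 DFL library (2.13).

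The largest differences in fold of all 145 regions were those of Bhlhe22_19 and Bhlhe22_12, in introns of Cyp7b1. Bhlhe22_19 had folds of 9.5, 10.5, 10.5 and 9.88 in FB (log2 difference 2.71 ± 0.11, SE, limma adjusted p = 2.17e-07). Bhlhe22_12 at chr3:18096054-18097059 had 10.4, 9.32, 9.76 and 10.5 (2.69 ± 0.11, adjusted p = 2.21e-07). Neither was called in a limb library, so all limb values in both tests are floors and the p-values restate the calls. In tags per M the order was another, with log2 differences of 3.13 for Neurog2_10, 3.08 for Olig2_1, 3.06 for Bhlhe22_12 and 2.28 for Bhlhe22_19.

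In the Olig locus the windows of both genes overlap, and a region was given to the nearer gene body. Olig2_12, 32618 bp upstream of Olig2, had folds of 6.65, 6.67, 7.68 and 7.49 in FB and Olig2_4 at chr16:91166919-91167239 had 7.12, 6.84, 4.55 and 5.19. Downstream of Olig1, Olig1_7 had 7.92, 8.13, 5.93 and 8.56 and Olig1_15 at chr16:91327227-91328074 had 7.94, 5.53, 6.21 and 9.69, both in introns of Gm15966. None of the 4 was called in a limb library of the 6 groups, and their log2 differences were 2.20, 1.92, 2.29 and 2.22. With 8 each, Olig1 and Olig2 had the most regions called in all FB and no limb libraries, followed by 7 each for Neurod4 and Bhlhe22, 6 for Neurod2 and 3 each for Neurog2, Neurod1 and Neurod6.

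The 19 regions lower in FB were found around Neurod1 (9), Neurod6 (6), Neurog2 (2), Neurod4 (1) and Bhlhe22 (1). The sequences of 2 of them are shown because they were the most strongly limb-biased regions of Neurod1 and Neurod6 on the fold scale. They were chosen after the values were seen, and are written as above, on the summit of the wt limb library with the highest fold.
Neurod1_17, chr2:79454217-79454417: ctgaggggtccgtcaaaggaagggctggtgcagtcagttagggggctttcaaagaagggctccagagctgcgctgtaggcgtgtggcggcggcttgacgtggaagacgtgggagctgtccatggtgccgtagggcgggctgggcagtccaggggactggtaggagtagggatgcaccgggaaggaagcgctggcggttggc
Neurod6_8, chr6:55641387-55641587: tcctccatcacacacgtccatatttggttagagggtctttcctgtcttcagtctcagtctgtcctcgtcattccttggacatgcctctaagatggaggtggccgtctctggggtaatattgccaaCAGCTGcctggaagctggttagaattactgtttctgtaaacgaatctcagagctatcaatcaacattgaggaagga

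Neurod1_17 lies in the coding exon of Neurod1, 2434 bp past the gene start, and is also the start of Gm26755, a noncoding gene annotated on the opposite strand. Its folds were 3.19, 2.28, 3.3 and 2.59 in FB and 9.64 to 16.2 (median 12.8) in limb, a log2 difference of −2.18 ± 0.13 (SE, limma adjusted p = 9.64e-07). In tags per M it had 1.53, 1.06, 1.63 and 1.13 in FB and 1.42 to 2.54 (median 2.46) in limb, so the ranges overlapped and the log2 difference was −0.70 (limma adjusted p = 0.00142). The local background was 21.8 to 33.2 tags in FB and 4.26 to 8.28 in limb.

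Neurod6_8, an intergenic region 39729 bp past the start of Neurod6, was called in all limb libraries and in no FB library. The FB values of this region in the tests are therefore floors. Its folds were 7.79, 9.16, 7.93 and 9.46 in DFL and 5.07, 6.42, 4.12 and 4.39 in PFL. The log2 difference between FB and limb was −2.15 ± 0.12 in fold (SE, limma adjusted p = 9.3e-07) and −1.91 in tags per M, and that between DFL and PFL was 0.80 ± 0.14 (adjusted p = 0.00394). Its sequence holds 1 CAGCTG.

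The comparison of DFL with PFL asked whether this chromatin also differed along the limb. Of the 145 regions, 10 were higher in DFL and 8 higher in PFL (limma, adjusted p under 0.05), against 13.0% and 11.5% of all regions. The shares were below those of the genome in both directions, and the median log2 difference of DFL minus PFL was −0.02 around the 8 genes and over all regions. A region uncalled in all 8 limb libraries takes this −0.02 from the floors and could not be called here. Of the 145 regions, 45 were called in every FB and no limb library, against 9.23% of all regions. The lower shares and the equal medians are therefore no measure of the limb tissues. The 3 largest differences in each direction were those of regions called in 4 libraries of 1 limb tissue and in none of the other. Their tests thus set called folds against floors. Next in the DFL direction was Olig2_1, in an intron of Gm41492 and chosen after its values were seen, with folds of 8.65, 9.25, 9.56 and 6.54 in DFL, 2.57 and 4.07 in the wt PFL libraries, no call in the 542 PFL libraries and 13, 14.1, 14.5 and 13.1 in FB (1.89, limma adjusted p = 0.000109).

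Open in DFL only were Neurod1_25, intergenic at chr2:79523107-79523963, Neurog2_1 at an annotated start of Larp7, and Neurod1_7 at a start of Cerkl. Either gene may have other starts. Neurod1_25 had folds of 8.2, 5.6, 11.7 and 8.85 in DFL (log2 difference 2.42 ± 0.16, SE, limma adjusted p = 4.11e-05). Neurog2_1 had 6.89, 6.4, 6.27 and 8.5 (2.16) and Neurod1_7 had 8.2, 7.35, 4.79 and 5.85 (2.04). None of the 3 was called in FB, and all 3 were called in the additional wt DFL library, at 9.53, 8.2 and 6.85.

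Open in PFL and not in DFL were Neurod4_8, Neurod1_8 and Neurod4_7. Neurod4_8 at chr10:130259385-130259956 had folds of 6.27, 6.48, 11.1 and 8.99 in PFL and 6.07, 5.67, 4.94 and 4.77 in FB (log2 difference of DFL minus PFL −2.38 ± 0.13, SE, limma adjusted p = 3.44e-05). Neurod4_7 at chr10:130244257-130244811 had 4.34, 4.37, 4.55 and 5.59 in PFL and 7.01, 8.51, 9.88 and 12.2 in FB (−1.62). Neurod1_8, in an intron of Cerkl, had 5.31, 3.32, 6.34 and 4.79 in PFL and was called in no other library (−1.65). Both intergenic Neurod4 regions, lying in the 3′ part of its window, were thus shared by PFL and FB. The calls of Neurod1_8 and Neurod4_7 were lost when peaks with a −log10 q under 10 were left out (adjusted p = 0.25 and 0.463).

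**Figure D5:**
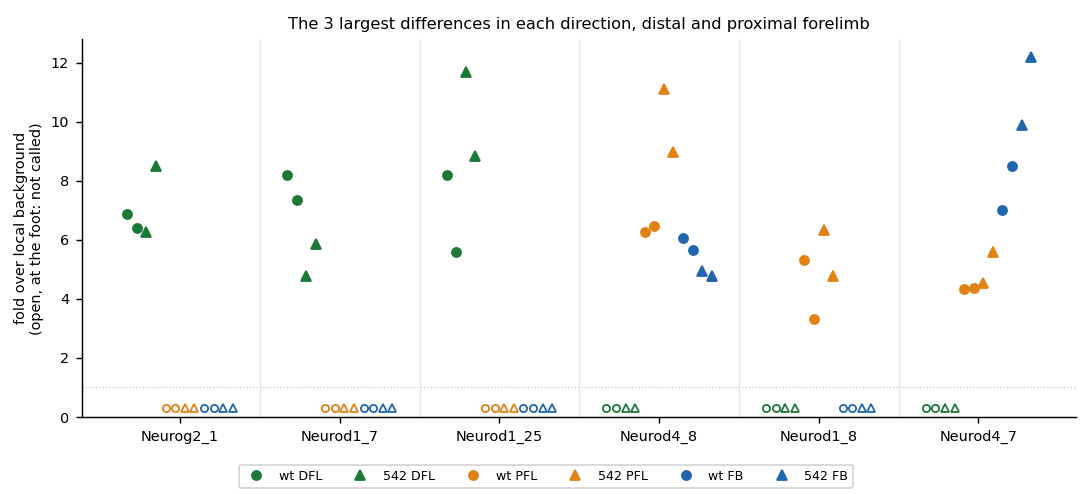
Fold over local background (y axis, from 0) of the 3 regions with the largest differences in each direction between DFL and PFL, 1 point per library, with uncalled libraries as open marks at the foot. Neurog2_1, Neurod1_7 and Neurod1_25 have points from DFL only, Neurod1_8 from PFL only, and Neurod4_7 and Neurod4_8 from PFL and FB.

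Few regions around the 8 genes differed between 542 and wt. In DFL 0 regions were higher in 542 and 0 lower (limma, adjusted p under 0.05), against 1.25% and 3.19% of all regions, and 12 of the 145 had an unadjusted p under 0.05. The smallest p in DFL was that of Neurod2_29, at the start of Pgap3, with folds of 13.3 and 13.8 in wt and 11 and 10.6 in 542 (log2 difference −0.33, adjusted p = 0.0892). In PFL 1 region was higher and 0 lower, against 0.860% and 3.47%, and in FB 3 were higher and 2 lower, against 1.20% and 2.31%. Over the mean of the tissues 2 were higher and 0 lower, against 0.979% and 1.57%. The middle 50% of the log2 differences of 542 minus wt lay between −0.15 and 0.08 in DFL, between −0.08 and 0.07 in PFL and between −0.18 and 0.16 in FB. The median equalled the upper value in DFL and in PFL. That value, 0.08 or 0.07, is what the floors give a region uncalled in every library of the tissue. These spreads therefore rest partly on regions without a call and do not measure the genotype alone.

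The 6 calls fell on 5 regions around Neurog2, Olig1 and Neurod1, and 4 of these were called in both FB libraries of 1 genotype and in no other of the 12. Neurog2_3, in a coding exon of Zgrf1 at chr3:127563055-127563315, had folds of 4.18 and 4 in 542 FB (log2 difference 1.50 ± 0.16, SE, limma adjusted p = 0.00415). Neurog2_6, intergenic and chosen after its values were seen, was the other region called only in 542 FB (0.85, adjusted p = 0.0175). Olig1_20 was called only in wt FB, with folds of 2.92 and 2.98 (−0.99 ± 0.16, adjusted p = 0.00993), and so was Neurod1_11, in an intron of Cerkl, with 2.34 and 3.26 (−0.90 ± 0.2, adjusted p = 0.0423).

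Of these 4, Neurog2_3 (25 and 32 tags), Olig1_20 (20 and 24) and Neurod1_11 (19 and 22) rest on few tags, while Neurog2_6 had 108 and 87 tags, at folds of 2.61 and 2.62. The differences of all 4 depend on the floor given to uncalled libraries. In tags per M the adjusted p was 0.132 for Olig1_20 and 0.607 for Neurod1_11, and 0.00657 for Neurog2_3. Without the second wt FB library the adjusted p of Neurog2_3 was 0.0646. Depth also differed between the genotypes, at an estimated 70.7 and 56.6 M tags in wt FB and 64.5 and 51.4 M in 542 FB. In limb it was 44.0 to 54.5 M in wt and 37.5 to 41.4 M in 542. The part of depth in the genotype calls was not tested.

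Olig1_22, intergenic and 83119 bp past the start of Olig1 at chr16:91352710-91353107, was the region that differed in more than 1 tissue. Its folds in 542 were 5.71 and 6.33 in FB, 5.15 and 4.39 in PFL and 3.21 in the second DFL library, and no wt library of the 6 groups had a call. The log2 difference was 2.05 ± 0.29 in FB (SE, limma adjusted p = 0.00636), 1.65 ± 0.29 in PFL (adjusted p = 0.015) and 0.62 ± 0.29 in DFL (adjusted p = 0.431). The additional wt DFL library did have a call there, at a fold of 3.75 from 34 tags. The PFL call was lost when any single PFL library was left out (adjusted p of 0.0603 to 0.125), and the FB call without the second wt FB library (0.0883).

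Whether the FB against limb difference itself changed with the genotype was tested with an interaction term. It was larger in 542 for 1 region, Neurog2_3 (log2 difference 1.42 ± 0.19, SE, limma adjusted p = 0.0164), and smaller for 1, Olig1_20 (−1.07 ± 0.2, adjusted p = 0.0271), against 1.04% and 1.69% of all regions. For Olig1_22 the term was 0.92 ± 0.35 (adjusted p = 0.281). Without the second wt FB library 1 of the 6 calls between genotypes and 0 of the 2 interaction calls were made, and without the first or the second wt PFL library 3 and 0.

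Other genes of the bHLH network were counted in the same way. Around 28 of them, 250 of 625 tested regions were higher in FB (40.0%) and 143 lower (22.9%), against the 31.3% and 32.9% of all regions. Of 193 regions around 10 further proneural and neuronal bHLH genes, 46.6% were higher and 20.7% lower, and of 169 around 8 target genes 45.0% and 24.3%. For the E proteins Tcf3 and Tcf12 the shares were 29.2% and 18.5% of 65 regions, and for the 8 Id, Hes and Hey inhibitors 32.8% and 25.3% of 198, so that the shares higher in FB of both lists lay near that of the genome.

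As at the 8 genes, the starts of close relatives differed among themselves. The starts of Neurog1 (log2 difference 1.70 ± 0.31, SE, limma adjusted p = 0.00123), which like Neurog2 initiates neurogenesis, and of Nhlh1 (1.31) were higher in FB, and those of Olig3 (1.14) and Nhlh2 (0.90) were called in FB and in no limb library. The start of Atoh1, a proneural factor of the hindbrain and spinal cord, was lower in FB (−0.33 ± 0.11, adjusted p = 0.0269). Among the inhibitors Hes5, a Notch effector, differed most (1.66 ± 0.17, adjusted p = 3.4e-05). The start of Dll1, a Notch ligand and proneural target, was also higher in FB (0.46, adjusted p = 0.011), and that of the cortical neuron gene Tbr1 was lower (−0.63, adjusted p = 0.00714). These start values are on the fold scale.

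The additional wt DFL library was set beside the others without a test. It had 92 regions around the 8 genes, and 69 of the 145 tested regions were called in it. All 37 regions that were called in the 4 DFL libraries of the groups were also called there, as were 4 of the 45 regions seen in every FB library and in no limb library. The latter share is 0 in the 8 limb libraries by definition, and this library was deeper, at 78.0 M tags. Its start folds were close to those of the other DFL libraries for Neurod4 (16.9) and Neurod1 (4.4), and higher for Olig2 (8.12) and Olig1 (15.4).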

How the data were processed

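ATAC-seq peaks of 13 libraries (E12.5, 50000 cells each) were analysed. Per the labels and the study's methods, the authors trimmed adapters with cutadapt, mapped read pairs with Bowtie to mm10 (wt) or to the genome with the insertion (542), removed pairs of low mapping quality, mitochondrial reads and duplicates (Picard), converted reads with bedtools and called peaks with MACS2 in each library alone, without a control, with tags centred on the cut site and extended to 200 bp. The deposited fold is a ratio of tags plus 1 over local background plus 1. The −log10 p-value and −log10 q-value deposited by the authors come from the peak caller. Their deposited score repeats the −log10 q as a whole number and was left aside. No normalization between libraries enters these values.

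Summits listed for 1 start and end were treated as 1 region, represented by its strongest summit. In 542 libraries the length of the insertion was subtracted from coordinates telomeric to it on chromosome 2, which moves the Neurod1 window. Overlapping regions of all libraries were joined into 276965 consensus regions (median width 434 bp), and the highest fold in each library gave its value (on the other scale, the most tags, which lay under another summit for Neurog2_7 in the first wt FB library). The 183039 regions called in at least 2 of 12 libraries were fitted in limma 3.58.1 (R 4.3.3) on the log2 fold, with 6 group means, trended empirical Bayes and Benjamini-Hochberg adjustment over all regions at 0.05. Uncalled libraries were set to the lowest fold called in that library in any region tested, whatever its background. The lowest fold of any called region was 1.37 to 1.64 in the 12 libraries. That is below the 2.1 to 2.6 called at the usual background. FB was compared with the mean of the 4 limb groups, DFL with PFL, and 542 with wt within each tissue. The tags of each summit were solved for, as a whole number, from the deposited fold and p-value (100.0% of summits per library, tolerance of 0.001 in −log10 p), and total tags from the most frequent background, so depth is an estimate. Starts were also compared by exact two-sided permutation tests (8 starts and 2 exon summits on 2 scales, unadjusted). P-values measure the spread between pools of embryos only where the libraries were called. In uncalled libraries the floor stands in, so the spread there does not come from the embryos.

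The 8 genes, the gene lists and the tests were chosen with earlier results of these data known. Regions were named by a rule: the region at each start, for each gene up to 2 further regions higher and 1 lower in FB with the largest differences, up to 3 in each direction for the limb tissues, and up to 2 in each direction for the genotypes within each tissue. The start and exon summits, the background ratios and the limb sequences were added after the data were seen. Alternatives were other values for uncalled libraries, centring, percentiles, tags per M (mega), other filters and windows, a replicate block, the additional library, and leaving out each library. Scripts used Python 3.11.15 (pandas 2.3.3, numpy 2.4.6, matplotlib 3.10.9, scipy 1.17.1) and were tested on simulated data. Sequences are from the GRCm38 reference and RefSeq. Some items of the gene lists and 1 sequence are not reported here.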

Additional observations from a re-analysis of the deposited data

Results flagged for a closer look

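The difference between FB and limb depended on the genotype, by the interaction term, for 2 regions, both with few tags. Neurog2_3 had 32 and 25 tags, where the fewest called at the usual background of those libraries were 16 and 14. Olig1_20 had 24 and 20, where the fewest were 17 and 15. The interaction value was 1.42 for Neurog2_3, called only in the 2 libraries of 542 FB, and −1.07 for Olig1_20, called only in the 2 libraries of wt FB (log2 fold, FB minus limb in 542 minus the same in wt). The genotype and the genome used for mapping cannot be told apart in these values.

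Outside the groups, 10 consensus regions around the 8 genes were called only in the additional wt DFL library, at folds of 2.03 to 3.53. It was the deepest library, with an estimated 78.0 M tags, and the part of depth in these calls was not tested.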

How the results depend on the processing

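Of 845 recomputed values of the 38 named results, 814 kept their direction and side of the threshold, 30 kept the direction and lost the call, and 1 reversed, Bhlhe22_7 in tags per M (0.49). At the exon summits alone the direction also reversed in tags per M, to 0.98 for Neurog2_7 and 0.29 for Bhlhe22_7. Neurod1_11 kept its call in 4 of 19. The 89 regions higher in FB became 53 within 50 kb and 45 by Fisher's exact test on presence, and 81 to 90 when 1 library was left out. The 19 lower became 12 at a −log10 q of at least 10, 9 within 50 kb and 2 by Fisher's test (13 to 22 leaving out 1 library). The 10 higher in DFL became 6 within 50 kb and 0 by Fisher's test (8 to 11), and the 8 higher in PFL 3 at the stricter q, 5 within 50 kb and 0 by Fisher's test (6 to 10). The 6 genotype calls over 3 tissues became 12 with uncalled libraries at a fold of 1, 15 as percentiles, 2 with calls in at least 4 libraries, 19 at the stricter q, 11 in 500 bp windows and 2 within 50 kb (1 to 9). The 2 interaction calls became 7, 6, 0, 15, 6 and 0 under the same settings, 1 with no filter on regions and 0 to 3 leaving out 1 library. The 45 regions called only in FB became 25 at the stricter q and 29 within 50 kb (45 to 48). The causes were not tested, though the smaller window holds fewer regions. With the replicate block, FB against limb gave 90 and 18 calls, the genotypes 5 and the interaction 1, and among named calls that of Neurod1_11 was lost (adjusted p = 0.0658). The replicate numbers showed no sign of pairing, as deviations of same-numbered libraries correlated at −0.0149 to 0.0105 over 15 pairs of groups. These correlations cannot show whether libraries of different tissues came from the same embryos. Centring on regions called in all libraries moved the median of all regions from −0.11 to −0.28 and their split to 24.7% higher and 40.6% lower, and the Olig1 start to 0.15, where its call was lost. Depth limits regions with fewer than 12 to 17 tags.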
